A study of Homo sapiens with 38 samples.

Results

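Naive human pluripotent stem cells that had spent 8 days in E8 medium were compared with the naive cells of the same experiment. The comparison takes in 6 of the 38 libraries of the series, chosen by their titles: the 2 libraries of cells in E8 at day 8 on Geltrex, and the 4 libraries of naive cells at day 0 in PXGL that carry no mark of the second experiment. All 38 libraries were made from Shef6, an established human embryonic stem cell line whose naive cells had been adapted to a coating of serum in place of feeder cells. RNA was measured by QuantSeq, which reads each transcript near its 3′ end, so that counts follow the number of transcripts and not their length.

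Of the 4 naive libraries, 2 came from cells on serum coating and 2 from cells on Geltrex, a basement membrane matrix. All 4 were in PXGL, which is N2B27 basal medium with the MEK inhibitor PD0325901, the tankyrase inhibitor XAV939, the PKC inhibitor Gö6983 and the cytokine LIF. The titles of these libraries say PXGL but their condition tag says PXGLY, which the sources used here do not spell out, so whether the medium held a further component is not known. The naive cells received a ROCK inhibitor after each passage as well. The E8 cells came from the same serum-adapted naive cells, which were seeded on Geltrex with a ROCK inhibitor for the first day. They were then kept in E8, a defined commercial medium that supplies FGF2 and a ligand of the TGFβ family, without the inhibitors of PXGL. Coating, medium and time in culture therefore differed together between the E8 libraries and the naive serum libraries, and medium and time between the E8 and the naive Geltrex libraries, so that the medium and the time cannot be told apart. Where a value at day 8 in another medium is given, it comes from 2 libraries in N2B27 and 2 in mTeSR, another commercial medium with FGF2 and a TGFβ ligand, also on Geltrex in the same experiment. The libraries are numbered as replicates and are called technical replicates in parts of the study. The p-values therefore measure only the spread between parallel libraries of 1 line and, among the naive libraries, between the 2 coatings. The spread between parallel libraries may be technical.

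The naive state corresponds to the epiblast of the blastocyst before implantation. In human cells it is held by blocking MEK/ERK and WNT signals, and it is marked by KLF17, the surface protein SUSD2 and genes of the early embryo such as the maternal-effect gene NLRP7. Release from the inhibitors lets cells pass through a formative phase, called capacitation, after which they resemble the epiblast after implantation, carry primed markers such as ZIC2, THY1 and CDH2, and can respond to the signals that form the germ layers.

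The naive libraries held 4390955 to 5577221 counts and the E8 libraries 4240390 and 5350385, and 16571 genes passed the filter on low counts. Levels below are CPM, counts relative to library sizes scaled by the trimmed mean of M-values (TMM). A naive gene's 4 values are always given as serum replicates 1 and 2 followed by Geltrex replicates 1 and 2. A gene was called higher or lower when edgeR's quasi-likelihood test, with Benjamini-Hochberg adjustment over all 16571 genes, gave an adjusted p-value under 0.05 and a log2 fold change beyond 1 in either direction. Across genes, Pearson's r of log2 CPM was 0.970 between the E8 libraries, 0.973 to 0.985 among the naive libraries and 0.846 to 0.866 between a naive and an E8 library. The first E8 library stood somewhat apart from its partner: the ribosomal protein gene RPS18 was at 2270.2 and 1107 CPM in E8 replicates 1 and 2, against 921, 961, 1149 and 1260.0 in the naive libraries, and the translation factor gene EEF1A1 at 5946 and 4286 against 3248, 3319, 3149 and 3607. The SD of the log2 ratio between replicates over 7137 well-counted genes was 0.332 in the E8 pair, where those of the other 14 groups of the experiment ran from 0.154 to 0.376. Some of the calls that turn on this library are named below. Counts given for a list without such a remark can depend on this library too.

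Between the naive cells and E8 day 8, 4709 genes (28.4% of those tested) changed, 3149 of them higher in E8 (19%) and 1560 lower (9.41%), while the median over all tested genes was a log2 fold change of 0.0367. The genes called higher made up 3.56% of all counts in the naive libraries and 13.2% in E8, and the genes called lower 8.81% and 3.002%. For 671 of the higher genes every naive library held 3 counts or fewer, which is taken here as the floor of detection, and for 177 of the lower genes both E8 libraries did. The libraries of the naive cells and of E8 did not overlap for 9721 genes (58.7%), a share that sets how little a lack of overlap says for a single gene with 4 libraries against 2. Without the first E8 library, the lone second one being assumed to vary as the other groups did, 2620 of the 3149 higher genes and 1194 of the 1560 lower genes were still called. Without the second, 2789 and 1320 were. Of 943 pseudogenes tested, whose reads may be shared with their parent genes, 119 were called higher (12.6%) and 62 lower (6.575%), below the shares of all genes. Many of the 119 were not called without the first E8 library, and single pseudogenes are not described further.

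Counts against each coating were close to the pooled one. Against the naive Geltrex libraries alone 4420 genes were called (26.7%) and against the naive serum libraries alone 4783 (28.9%), with 3766 called in the same direction against both of them and against all 4. Between naive cells on Geltrex and on serum, 0 genes (0%) were called by edgeR, although 2105 had an unadjusted p-value under 0.05, and DESeq2 called 4.

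**Figure D1:**
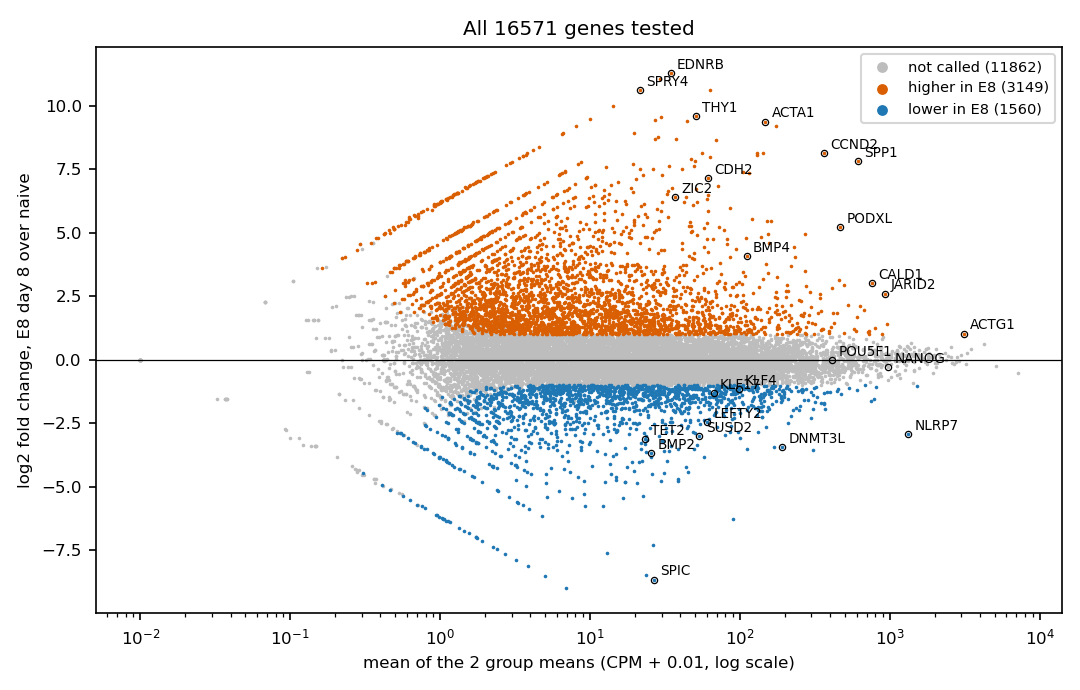
Log2 fold change of E8 day 8 over the naive cells (vertical axis) against the mean level of each gene over both groups in CPM (horizontal axis, log scale) for 16571 genes. Orange points are the 3149 genes called higher, blue points the 1560 called lower, grey points the rest, and the named genes carry their symbols. Fitted values of genes at the floor in 1 group, such as EDNRB and SPIC, lie at the edges and depend on the prior count.

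Most naive markers fell, to different depths. Of 30 naive markers tested, 22 were called lower (9.41% of all genes), 1 higher (19%) and 7 neither, with a median log2 fold change of -2.25. SUSD2, a surface protein used to sort naive cells (chr22:24181487-24189106 in GRCh38), was at 124, 96.5, 80.4 and 81.5 CPM in the naive libraries and at 12.1 and 11.6 in E8. All E8 values lay far below all naive ones (log2 fold change -3.004, SE 0.22, adjusted p = 3.17e-12). DNMT3L, a cofactor of the de novo DNA methyltransferases, went from 361, 358, 357 and 333 CPM to 34.9 and 29.8 (log2 fold change -3.44, SE 0.15, adjusted p = 4.32e-17). SPIC, a transcription factor of the ETS family (chr12:101475336-101486997), was counted at 52.7, 56.3, 54.3 and 49.4 CPM in the naive cells and at 0 and 0.233 in E8, which is at the floor. It was therefore at least 76.1-fold lower. NLRP7, a maternal-effect gene that was among the strongest transcripts of the naive cells, lost more CPM than any other called gene, from 2084, 2328, 2535 and 2469.6 CPM to 299 and 319.8 (log2 fold change -2.93, SE 0.12, adjusted p = 6.75e-18). Its relative NLRP2 dropped as well, from 1153, 1085, 1194 and 1089.9 to 327 and 416 CPM, and so did KHDC1L, from 481, 554, 648 and 572 to 47 and 48.7 CPM.

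Several transcription factors of the naive network were among the markers that fell. KLF17 (chr1:44118821-44135140) was at 55.1, 96.3, 105 and 125 CPM in naive cells and at 44.2 and 32.1 in E8. The naive values were widely spread, the lowest of them from the first serum library, and the E8 values lay below all of them (log2 fold change -1.32, SE 0.26, adjusted p = 0.000125). KLF4 went from 176, 149.6, 107 and 109 CPM to 65.3 and 57.3 (log2 fold change -1.14, SE 0.18, adjusted p = 7.01e-06). KLF5 went from 249, 253, 206 and 224 to 47 and 49.6 CPM (log2 fold change -2.27, SE 0.12, adjusted p = 2.15e-15) and TFCP2L1 from 255, 274, 241 and 227 to 63 and 68.3 (log2 fold change -1.93, SE 0.12, adjusted p = 1.11e-13). Against the naive serum libraries alone KLF17 was at -0.98 on the log2 scale, short of the fold threshold. KLF4 was short of it against the naive Geltrex libraries alone (-0.81), with the 6 naive libraries of both experiments (-0.86) and without the first naive serum library (-0.99). TBX3 fell too, by 2.22 on the log2 scale, whereas TFAP2C, at 323, 425, 453 and 459 CPM in naive cells and 391 and 404 in E8, overlapped between the groups and was not called. Nor was the oocyte gene KHDC3L, at 252, 274, 289 and 295 and 216 and 317. DPPA3, a maternal factor of the oocyte and early embryo, stood at 255, 289, 293 and 300.2 CPM against 255 and 194 (log2 fold change -0.34, SE 0.11, adjusted p = 0.0118), a difference under the fold threshold. GDF15, a secreted stress-responsive member of the TGFβ superfamily on the naive list, was the 1 marker that rose, from 82.9, 94.1, 118 and 111 to 237 and 282 CPM (log2 fold change 1.35, SE 0.12, adjusted p = 2.75e-10). Its call was lost when the 2 naive libraries of the second experiment were added (log2 fold change 0.42, adjusted p = 0.325). The titles of these 2 libraries say day 0, but their library names say day 4.

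Of the core pluripotency factors NANOG, SOX2 and POU5F1, none was called. NANOG was at 950.0, 1150.2, 1082 and 1116 CPM and then 874 and 869, and SOX2 at 272, 266, 268 and 255 and 299 and 382, both with adjusted p-values under 0.05 but log2 fold changes of -0.30 and 0.36. POU5F1, which encodes OCT4, was the gene of this list on which the E8 libraries differed most, with 272 and 555 CPM against 563, 385, 356 and 361 in the naive libraries (log2 fold change -0.01, SE 0.28, adjusted p = 0.979). At day 6 in E8 it had been at 480.4 and 518. Of the 14 genes, 5 were higher (LIN28A, TDGF1, DPPA2, L1TD1 and FOXD3), PRDM14 was lower and 8 were not called, against 19% higher and 9.41% lower of all genes. L1TD1, an RNA-binding protein derived from a LINE-1 element, went from 478, 498, 536 and 566 to 1329.6 and 1437 CPM (log2 fold change 1.41, SE 0.09, adjusted p = 1.08e-13). FOXD3, a forkhead factor, showed the largest fold of the list, from 5.78, 6.69, 1.98 and 3.39 to 45.5 and 54.3 CPM (log2 fold change 3.49, SE 0.23, adjusted p = 3.76e-13). The call of TDGF1, a coreceptor of Nodal, was lost without the first E8 library.

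**Figure D2:**
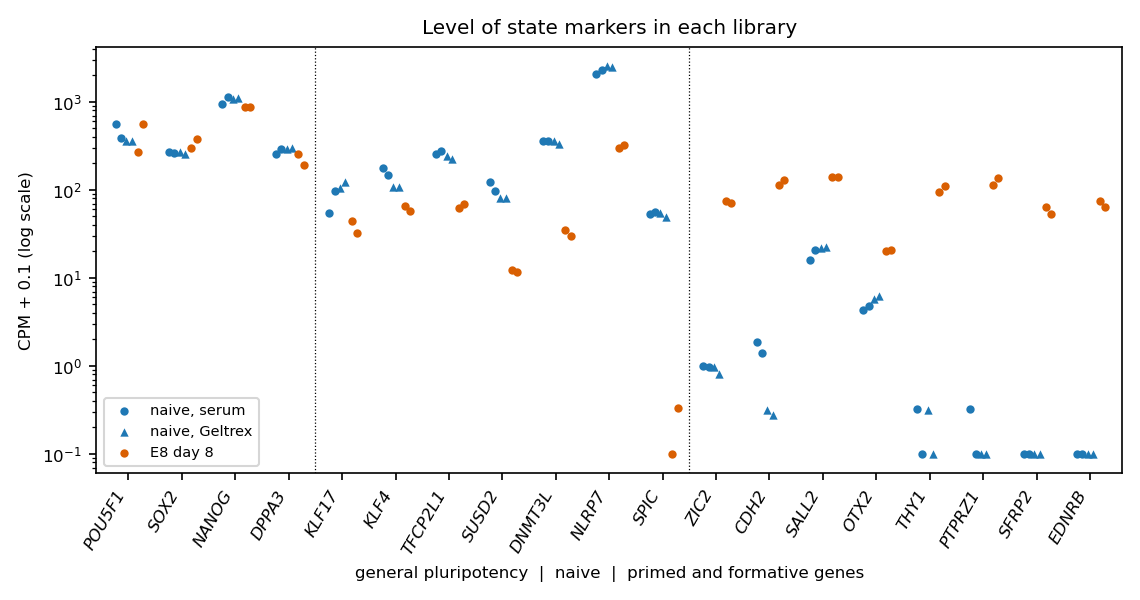
CPM of each library (vertical axis, log scale with 0.1 CPM added) for general pluripotency, naive and primed markers (horizontal axis). Blue circles are the 2 naive serum libraries, blue triangles the 2 naive Geltrex libraries and orange circles the 2 E8 day 8 libraries. The E8 points lie on or near the naive ones for SOX2, NANOG and DPPA3, below them from KLF17 to SPIC and above them from ZIC2 to EDNRB.

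Primed and formative genes formed one of the most one-sided groups, with 26 of 28 tested called higher (19% of all genes), 0 lower and a median log2 fold change of 4.51. ZIC2 (chr13:99981784-99986765), a zinc finger factor of the epiblast after implantation, was at 0.889, 0.863, 0.879 and 0.714 CPM in the naive libraries and at 75.1 and 70.6 in E8 (log2 fold change 6.41, SE 0.22, adjusted p = 9e-20). CDH2, which encodes N-cadherin (chr18:27932879-28177946), was at 1.78, 1.3, 0.22 and 0.178 CPM and 114 and 129.8 (log2 fold change 7.15, SE 0.25, adjusted p = 2.54e-19). Both were under 2 CPM in each naive library, CDH2 being higher there on serum than on Geltrex, and of similar level in both E8 libraries. THY1, the surface protein CD90, had at most 0.222 CPM in a naive library, which is under the floor, and stood at 93.4 and 110.2 CPM in E8, at least 153-fold higher. The receptor-type phosphatase PTPRZ1, the secreted WNT modulator SFRP2 and the endothelin receptor EDNRB (chr13:77895481-77975529) were also at the floor in all 4 naive libraries, and reached 113 and 138, 63.6 and 52.9 and 74.2 and 64.3 CPM. They were at least 188-fold, 87.4-fold and 104-fold higher. OTX2, an early head and epiblast factor, rose from 4.22, 4.75, 5.71 and 6.06 to 20.4 and 20.7 CPM (log2 fold change 1.97, SE 0.20, adjusted p = 1.85e-09), and the zinc finger factor SALL2 from 16, 20.7, 22 and 22.1 to 139.8 and 139.5 (log2 fold change 2.78, SE 0.13, adjusted p = 6.24e-17). PODXL, the antigen carrier of primed cells, rose from 20.7, 23.5, 26.1 and 25.3 to 954 and 860.0 (log2 fold change 5.24, SE 0.12, adjusted p = 2.09e-23), the E8 libraries again being close. LIN28B, at 461, 462, 455 and 443 and 262 and 235 CPM, and TCF7L1, at 26.4, 22.5, 23.3 and 21.2 and 44.2 and 44.7, stayed under the fold threshold in opposite directions. POU3F1 and CYTL1 did not pass the filter.

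**Figure D3:**
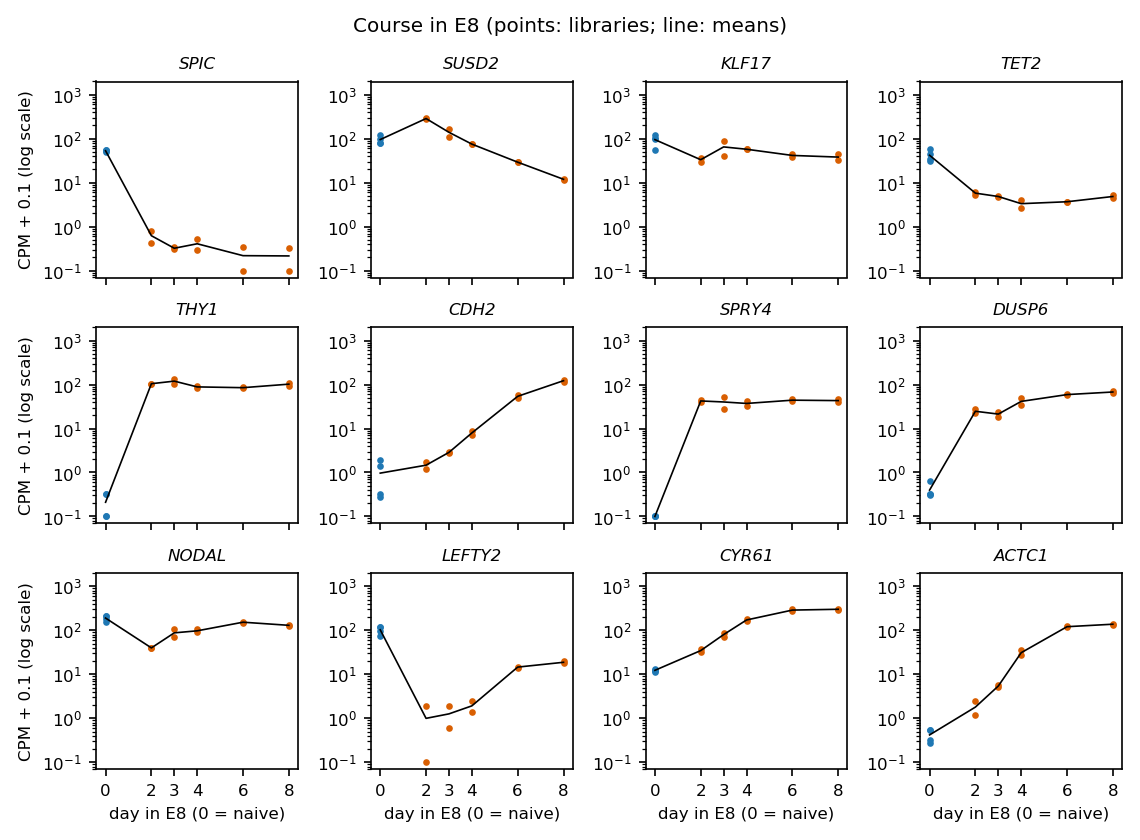
CPM (vertical axis, log scale with 0.1 CPM added) over days 0, 2, 3, 4, 6 and 8 in E8 (horizontal axis) for 12 genes. Points are libraries, 4 at day 0 and 2 at each later day, and lines join the means. SPIC and TET2 are low from day 2, SUSD2 peaks at day 2, CDH2 and ACTC1 climb after day 3, and NODAL and LEFTY2 dip and come back in part.

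The E8 libraries of earlier days show when these levels were reached. SPIC was at 0.717 and 0.331 CPM at day 2 already, while SUSD2 was at 298 and 277 CPM at that day, above its naive level, and fell through 76.6 and 74.1 at day 4 and 29.2 and 29.2 at day 6. THY1 had reached 104 and 105 CPM by day 2. CDH2 was still at 7.16 and 8.49 CPM at day 4 and rose to 50.5 and 57.1 at day 6, and EDNRB climbed from 12.6 and 20.7 to 34.4 and 34.9 over the same days. KLF17 went to 29.8 and 36.7 CPM at day 2, 40.7 and 89.4 at day 3 and 57.7 and 57.5 at day 4, with no steady decline over these days. Between day 6 and day 8, 89 genes (0.537%) were called, among them CDH2, the frizzled receptor gene FZD7 and SOX17 higher and SUSD2, NLRP7, KHDC1L, MAGEB2 and CD70 lower. That count rested on the libraries of day 8: it was 19 without the first E8 library and 366 without the second. CDH2, NLRP7, KHDC1L and MAGEB2 were called in both of these cases, and FZD7, SOX17, SUSD2 and CD70 not without the first library.

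Every tested target of FGF/ERK signalling was higher in E8, all 19 of 19 (19% of all genes), with a median log2 fold change of 4.26 and 0.0367 over all genes. SPRY4 (chr5:142310427-142326455), a feedback inhibitor of receptor tyrosine kinases, had 0 counts in all 4 naive libraries and stood at 45.7 and 40.3 CPM in E8, at least 64.5-fold higher. The phosphatase DUSP6, which switches ERK off, was at 0.222, 0.216, 0.22 and 0.535 CPM and 64.2 and 70.8, at least 101-fold higher, and DUSP4, a nuclear phosphatase of the same family, was at least 81-fold higher. The ETS factor ETV4 went from 6.66, 5.18, 6.59 and 4.99 to 76.1 and 79.9 CPM (log2 fold change 3.74, SE 0.20, adjusted p = 2.14e-15). Its relative ETV5 went from 1.33, 0.863, 1.32 and 1.78 to 129.7 and 114 (log2 fold change 6.47, SE 0.17, adjusted p = 3.36e-22). MYC rose from 3.33, 3.02, 1.76 and 1.61 to 35.3 and 31 CPM and the immediate early gene EGR1, at the floor in naive cells, to 8.3 and 8.62. The time of the rise differed between targets. At day 2 SPRY4 was at 39.5 and 45 CPM, close to its level at day 8, and ETV4 at 161 and 182, above it, whereas ETV5 was at 26.9 and 28.1 and DUSP6 at 27.3 and 21.8, below theirs. At day 8 DUSP6 was lower in E8 than in N2B27, where it reached 202 ± 4.84 CPM (log2 difference -1.58, SE 0.16, adjusted p = 3.98e-08). ETV4 was higher than the 38.8 ± 2.69 CPM of N2B27 (log2 difference 1.00, SE 0.19, adjusted p = 0.000612), a call at the fold threshold that was lost without the second E8 library.

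Ligands and receptors of the FGF family moved in both directions. FGF2 (chr4:122826682-122898236), the ligand that E8 also supplies as protein, rose from 27.8, 27.2, 26.6 and 25.3 to 468 and 417 CPM (log2 fold change 4.05, SE 0.09, adjusted p = 2.09e-23). The receptor FGFR1 rose from 90.2, 75.3, 83.1 and 72.8 to 341 and 372 (log2 fold change 2.15, SE 0.10, adjusted p = 1.19e-16). FGF4, the ligand of the early epiblast, fell from 299, 359, 382 and 375 to 65.3 and 58.9 CPM (log2 fold change -2.51, SE 0.16, adjusted p = 1.44e-13). The libraries of both groups were well apart for all 3 genes. Of 10 tested members 5 were higher and 2 lower, against 19% and 9.41% of all genes, the second of the lower ones being FGF8, whose call was lost without either E8 library, and FGFR2, FGFR3 and FGFR4 were not called.

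Genes of the Activin and Nodal pathway gave 7 higher and 4 lower of 18, 19% of all genes being higher and 9.41% lower. NODAL itself was at 155, 177, 213 and 213 CPM in naive cells and 132 and 127 in E8 (log2 fold change -0.55, SE 0.15, adjusted p = 0.00381). It had not stayed at that level in between, being at 39.5 and 40.04 at day 2 and 149.9 and 156 at day 6. The Nodal antagonists LEFTY1 and LEFTY2 ended on opposite sides of their naive level. LEFTY1 went from 60.2, 65.2, 84.8 and 76.3 CPM through 9.68 and 10.3 at day 2 to 199.9 and 154 at day 8 (log2 fold change 1.31, SE 0.15, adjusted p = 3.28e-08). LEFTY2 went from 73.8, 97.6, 119 and 119.5 through 1.79 and 0 to 17.7 and 19.6 (log2 fold change -2.46, SE 0.24, adjusted p = 1.39e-09). CER1, an antagonist secreted by anterior endoderm, rose from 0 counts to 2.64 and 2.56 CPM, at least 3.9-fold. It remained below the 31.8 ± 4.39 CPM of N2B27 and the 36.3 ± 4.78 of mTeSR (log2 difference -3.59, SE 0.38, adjusted p = 1.67e-06 and log2 difference -3.79, SE 0.38, adjusted p = 1.93e-06). INHBA, which encodes a subunit of Activin A, was at the floor in naive cells and at 11.1 and 12.6 CPM in E8.

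Of 16 BMP genes 11 were higher and 1 lower, against 19% and 9.41% of all genes. BMP4 (chr14:53949736-53958761) rose from 10.7, 13.8, 13 and 12.3 to 217 and 204 CPM (log2 fold change 4.08, SE 0.13, adjusted p = 2.71e-20) and was also above the 95.1 ± 11.5 CPM of mTeSR (log2 difference 1.14, SE 0.14, adjusted p = 2.24e-06). BMP2 fell from 55.5, 53.1, 42.2 and 39.1 to 3.21 and 4.19 CPM (log2 fold change -3.68, SE 0.26, adjusted p = 1.3e-12). That was below the 44.4 ± 6.55 CPM of N2B27 (log2 difference -3.59, SE 0.28, adjusted p = 5.06e-10) and the 13.5 ± 1.8 of mTeSR (log2 difference -1.87, SE 0.31, adjusted p = 0.000158). The ligands thus changed places, BMP2 being the more abundant of them in every naive library and BMP4 in both E8 libraries. ID3, a direct BMP target that blocks bHLH factors, rose from 1.11, 1.3, 1.54 and 1.61 to 92.3 and 101 CPM (log2 fold change 6.08, SE 0.20, adjusted p = 4.82e-20). ID1, another target, at 84, 83.1, 59.3 and 57.8 and 138 and 122 CPM, stayed under the fold threshold (log2 fold change 0.88, SE 0.14, adjusted p = 4.15e-06). The BMP antagonist NOG reached only 0.755 and 1.4 CPM, against 19.4 ± 6.34 in N2B27 and 12.1 ± 2.56 in mTeSR, and its call against naive cells was lost without the second E8 library.

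Some WNT target genes were lower than in the other media. Of 15 tested, 2 were higher than in naive cells, 3 lower (5 without the second E8 library) and 10 not called, where 19% of all genes were higher and 9.41% lower, with log2 fold changes from -3.19 to 3.49 and a median of -0.09. Against the other media 9 were lower in E8 than in N2B27 at day 8 and 6 lower than in mTeSR, with 0 higher in either comparison. AXIN2, the feedback inhibitor of β-catenin, stood at 55.8, 40.6, 34.9 and 33.7 CPM in naive cells and 20.01 and 25.6 in E8 (log2 fold change -0.86, SE 0.21, adjusted p = 0.00135). It was at 48.5 ± 8.83 in N2B27 and 52.3 ± 0.96 in mTeSR (log2 difference -1.10, SE 0.24, adjusted p = 0.00185 and log2 difference -1.20, SE 0.24, adjusted p = 0.00147). SP5, a zinc finger gene induced by WNT, rose from 1.56, 3.02, 0.879 and 2.5 to 26.2 and 16.1 CPM (log2 fold change 3.39, SE 0.30, adjusted p = 1.78e-10). It stayed far below the 175 ± 6.86 CPM of N2B27 (log2 difference -3.03, SE 0.23, adjusted p = 5.41e-10) and the 129 ± 4.63 of mTeSR (log2 difference -2.59, SE 0.24, adjusted p = 2.53e-08). The WNT antagonist SFRP1 fell from 50.4, 46.6, 66.6 and 57.8 to 6.04 and 6.06 CPM (log2 fold change -3.19, SE 0.20, adjusted p = 1.08e-13), whereas N2B27 held 68.8 ± 8.93. The ligand WNT5A was at 2.64 and 2.56 CPM in E8 and at 41.3 ± 1.89 in N2B27, and LEF1 was at or under 0.699 CPM in all 6 libraries. Over all genes, 485 (2.93%) were higher and 627 (3.78%) lower in E8 than in N2B27, 1112 in all (6.71%), and 405 (2.44%) higher and 383 (2.31%) lower than in mTeSR, 788 in all (4.76%). Without the first E8 library these totals were 664 and 361, and of the WNT genes 6 were lower than in N2B27 and 3 lower than in mTeSR, AXIN2 being called in neither case.

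LIF left the medium with PXGL, and of 13 genes of its pathway 3 were higher (2 without the second E8 library) and 3 lower, against 19% and 9.41% of all genes. SOCS3, the feedback inhibitor of JAK kinases and a usual STAT3 target, rose from 0.889, 0.432, 1.1 and 1.78 to 14.2 and 13.7 CPM (log2 fold change 3.65, SE 0.28, adjusted p = 6.21e-12). The receptor subunit LIFR rose from 9.33, 11, 10.1 and 8.56 to 19.3 and 20.5 CPM (log2 fold change 1.03, SE 0.15, adjusted p = 2.58e-06), well short of the 106 ± 12.1 CPM of N2B27 (log2 difference -2.41, SE 0.16, adjusted p = 2.12e-11). Its call against naive cells was lost without the second E8 library. JUNB fell from 16.4, 17.5, 15.4 and 12.7 to 1.7 and 1.63 CPM (log2 fold change -3.19, SE 0.32, adjusted p = 1.86e-09) and BCL3 from 32, 26.6, 19.1 and 23.5 to 3.4 and 4.19 (log2 fold change -2.74, SE 0.29, adjusted p = 4.7e-09). The interleukin-6 receptor gene IL6R fell by 1.91 on the log2 scale. STAT3, at 23.5, 15.5, 17.1 and 14.8 and 23.4 and 21.4 CPM, was not called.

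YAP/TEAD targets rose without an exception among those called, 12 of 19 (19% of all genes) with 0 lower and a median log2 fold change of 2.56. CYR61 (CCN1), a matricellular protein and the reference target of YAP, went from 11.1, 13.4, 11.9 and 12.5 to 297 and 304 CPM (log2 fold change 4.62, SE 0.13, adjusted p = 2.66e-21). CTGF (CCN2) went from 10.7, 7.77, 7.69 and 11.2 to 316 and 219 (log2 fold change 4.83, SE 0.17, adjusted p = 3.6e-19). The libraries were close together within each group for CYR61, and for CTGF the E8 libraries differed but both were far above every naive one. The receptor kinase AXL was at least 36.6-fold higher, and ANKRD1, at 2.64 and 3.49 CPM in E8, at least 4.6-fold higher than its naive floor but below the 38.8 ± 6.75 CPM of N2B27 (log2 difference -3.66, SE 0.33, adjusted p = 1.42e-08). The regulators themselves, YAP1, WWTR1, TEAD1, TEAD2 and TEAD4, were not called. CYR61 and CTGF climbed steadily, through 36.9 and 32.1 and 40.2 and 35.7 CPM at day 2 and 164 and 179 and 137 and 137 at day 4.

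Genes of actin filaments and of the contractile apparatus rose, and some of them stood above the other media as well. The list of 22 such genes was put together after their values had been seen and is given as a description. Whether a ROCK inhibitor was in the naive medium at collection is not known, and its part in these differences was not tested. Of the 22, 19 were higher than in naive cells (19% of all genes) and 0 lower, with a median log2 fold change of 3. Their summed level went from between 3828 and 4123 CPM to between 10328 and 11260 CPM. ACTA1, skeletal muscle α-actin, was at 1.11, 0.216, 0 and 0.357 CPM in naive cells and at 319.9 and 269.8 in E8 (log2 fold change 9.38, SE 0.24, adjusted p = 2.46e-22). ACTC1, cardiac α-actin, was at the floor in naive cells and at 142 and 133 CPM in E8, at least 206-fold higher. Both were also above N2B27, at 79.6 ± 5.38 and 52.3 ± 0.544 CPM (log2 difference 1.89, SE 0.16, adjusted p = 4.11e-09 and log2 difference 1.39, SE 0.16, adjusted p = 3.04e-07). In mTeSR they were lower too, at 51.4 ± 9.56 and 40.6 ± 10.1 CPM (log2 difference 2.52, SE 0.17, adjusted p = 3.8e-10 and log2 difference 1.76, SE 0.16, adjusted p = 3.18e-08). Caldesmon (CALD1), which binds actin and tropomyosin, rose from 151, 163, 178 and 179.6 to 1302 and 1420.0 CPM (log2 fold change 3.02, SE 0.10, adjusted p = 1.51e-19). Tropomyosin 1 (TPM1) went from 109, 97.8, 97.3 and 99.5 to 728 and 722 CPM (log2 fold change 2.84, SE 0.11, adjusted p = 3.2e-18), and both were above N2B27 and mTeSR as well, the call of CALD1 against N2B27 being lost without the second E8 library. TAGLN, an actin-binding protein of smooth muscle, went from 1.78, 1.73, 1.1 and 0.892 to 190.2 and 264 CPM (log2 fold change 7.36, SE 0.23, adjusted p = 1.22e-20), above the 90.3 ± 20.5 CPM of mTeSR. FHL2, a LIM protein of the cytoskeleton and nucleus, went from 1.11, 0.432, 1.54 and 1.96 to 37.4 and 24 CPM (log2 fold change 4.55, SE 0.30, adjusted p = 3.44e-13) and was likewise above both media. In all, 5 of the 22 were higher than in N2B27 and 10 higher than in mTeSR, with 0 lower in either. The non-muscle actin ACTG1 had the largest gain in CPM of any called gene, from 1753, 2117, 2020.3 and 2294 to 5063 and 3297, and its call was lost without the first E8 library (0.69 on the log2 scale). SRF, the factor that binds CArG boxes, overlapped at 127, 235, 248 and 292 and 328 and 265 CPM. Without the first E8 library 5 of the 22 were higher than in N2B27 and 8 higher than in mTeSR, FHL2 no longer being called against mTeSR.

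The promoters of some of these genes are shown for the motifs of the factors that the list names call up, the CArG box, read by SRF, and the sequence GGAATG, the core read by TEAD factors. Sequences are from RefSeq on GRCh38.p14 and run from 250 bases before to 50 after the annotated start, 5′ to 3′ on the strand of the gene, with matches on either strand to 1 motif in capitals, the CArG box for ACTA1, ACTC1 and FHL2 and GGAATG for CCN2 and ANKRD1. Matches to the other motif, such as GGAATG in ACTA1, are left in lower case. ACTA1 (chr1:229434045-229434344, minus strand), ACTC1 (chr15:34795500-34795799, minus strand) and FHL2 (chr2:105438464-105438763, minus strand) each held 1 CArG box, beginning 97, 109 and 101 bases before the start.

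ACTA1: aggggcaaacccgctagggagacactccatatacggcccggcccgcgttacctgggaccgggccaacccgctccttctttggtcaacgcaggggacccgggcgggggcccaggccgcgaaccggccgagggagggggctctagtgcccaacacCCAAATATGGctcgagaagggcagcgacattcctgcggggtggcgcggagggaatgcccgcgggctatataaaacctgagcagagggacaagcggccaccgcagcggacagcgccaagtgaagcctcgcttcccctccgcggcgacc

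ACTC1: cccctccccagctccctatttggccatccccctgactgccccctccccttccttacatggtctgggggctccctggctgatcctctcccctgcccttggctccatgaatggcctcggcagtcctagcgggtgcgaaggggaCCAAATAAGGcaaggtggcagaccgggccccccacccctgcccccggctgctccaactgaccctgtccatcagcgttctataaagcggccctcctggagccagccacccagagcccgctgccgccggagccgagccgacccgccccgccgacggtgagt

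FHL2: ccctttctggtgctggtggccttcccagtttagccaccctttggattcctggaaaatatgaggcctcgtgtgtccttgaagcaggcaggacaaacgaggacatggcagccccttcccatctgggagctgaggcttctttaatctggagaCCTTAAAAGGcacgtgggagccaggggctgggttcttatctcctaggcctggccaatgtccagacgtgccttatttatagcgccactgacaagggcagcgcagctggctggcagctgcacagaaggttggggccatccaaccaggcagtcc

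CTGF, listed under its present symbol CCN2 (chr6:131951323-131951622, minus strand), held 3 matches to GGAATG between 169 and 95 bases before the start, and ANKRD1 (chr10:90921038-90921337, minus strand) 2 matches.

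CCN2: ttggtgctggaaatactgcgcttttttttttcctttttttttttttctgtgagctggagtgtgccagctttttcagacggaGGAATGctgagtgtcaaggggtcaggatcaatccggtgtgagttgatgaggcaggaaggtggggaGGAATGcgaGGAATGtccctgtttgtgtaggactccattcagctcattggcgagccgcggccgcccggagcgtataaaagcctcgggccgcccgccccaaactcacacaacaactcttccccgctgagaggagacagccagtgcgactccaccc

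ANKRD1: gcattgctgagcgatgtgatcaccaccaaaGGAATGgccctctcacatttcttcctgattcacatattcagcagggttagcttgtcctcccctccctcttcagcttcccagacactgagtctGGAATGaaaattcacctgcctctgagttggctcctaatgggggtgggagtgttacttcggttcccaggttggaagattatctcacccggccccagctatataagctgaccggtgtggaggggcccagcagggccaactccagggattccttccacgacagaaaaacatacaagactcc

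A CArG box was present in 351 of all 27305 promoters (1.29%), in 117 of 10774 promoters of tested genes (1.09%), in 10 of 19 promoters of the actin and contractile list (52.6%) and in 0 of 15 promoters of YAP/TEAD targets. GGAATG was present in 3836 of all promoters (14%), in 1146 of those of tested genes (10.6%), in 7 of 15 of the YAP/TEAD targets (46.7%) and in 6 of 19 of the actin and contractile list (31.6%). The contractile promoters with a box were those of ACTA1, ACTC1, ACTG1, ACTG2, CNN2, FHL2, FLNA, MYL7, SRF and TPM4. A gene with several annotated starts was counted by its first listed window only. The windows scanned for CALD1, TPM1 and CNN1 held no CArG box, those of CALD1 and TPM1 lying inside the annotated gene. TAGLN and CCN1 had no entry. The contractile list was put together by hand and the YAP/TEAD list is one of known targets. These shares therefore describe the lists and do not test control by SRF or TEAD factors.

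**Figure D4:**
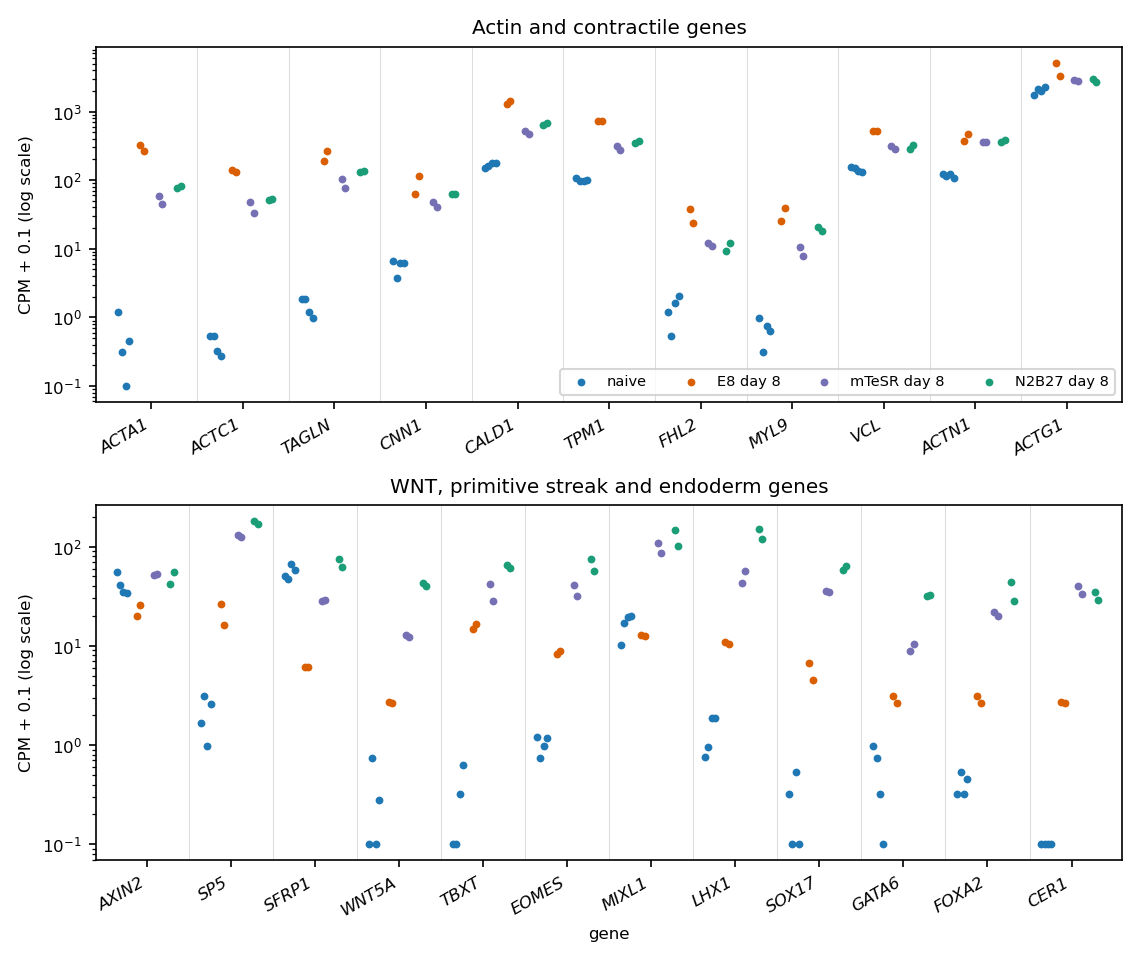
CPM of single libraries (vertical axis, log scale with 0.1 CPM added) in naive cells (4 libraries) and at day 8 in E8, mTeSR and N2B27 (2 each, colours as in the legend) for actin and contractile genes in the upper panel and WNT, primitive streak and endoderm genes in the lower panel (horizontal axes). E8 points are highest for ACTA1, ACTC1, CALD1, TPM1 and FHL2, and lowest of the 3 media for SP5, SFRP1, EOMES, MIXL1, LHX1, SOX17, GATA6 and FOXA2.

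Most primitive streak and endoderm markers were lower at E8 day 8 than in the other media. Among 10 tested primitive streak genes 4 were higher and 2 lower than in naive cells (1 lower without either E8 library), against 19% and 9.41% of all genes. Of the same 10, 9 were lower than in N2B27 and 8 lower than in mTeSR, against 3.78% and 2.31% of all genes. TBXT, or brachyury, rose from the floor to 14.5 and 16.3 CPM, at least 23.1-fold, against 63.3 ± 3.65 in N2B27 (log2 difference -2.04, SE 0.24, adjusted p = 1.15e-06) and 35.3 ± 9.66 in mTeSR (log2 difference -1.20, SE 0.25, adjusted p = 0.0027). EOMES rose from 1.11, 0.648, 0.879 and 1.07 to 8.12 and 8.85 CPM, against 65.7 ± 12.7 and 36.5 ± 6.72 (log2 difference -2.95, SE 0.25, adjusted p = 1.92e-09 and log2 difference -2.11, SE 0.25, adjusted p = 2.02e-06). MIXL1 was expressed in the naive cells, at 10.00, 17.1, 19.6 and 19.98 CPM, and was not called in E8, at 12.8 and 12.3. It was at 123 ± 31.6 and 97.1 ± 16.3 in the other media (log2 difference -3.28, SE 0.24, adjusted p = 2.38e-10 and log2 difference -2.94, SE 0.25, adjusted p = 9.01e-09). LHX1 was at 10.8 and 10.2 CPM in E8 and 135 ± 23.4 in N2B27. Without the first E8 library 8 of the 10 were lower than in N2B27 and 4 lower than in mTeSR, the call of TBXT against mTeSR being lost. In bulk RNA, fewer cells of a type and less RNA per cell cannot be told apart.

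Of 11 primitive endoderm markers tested, 7 were higher than in naive cells and 1 lower (19% and 9.41% of all genes). Of the same 11, 9 were lower than in N2B27 and 6 lower than in mTeSR (3.78% and 2.31% of all genes), and without the first E8 library 9 and 4. SOX17 was at the floor in naive cells and at 6.61 and 4.43 CPM in E8, with 61 ± 3.44 in N2B27 and 35.5 ± 0.515 in mTeSR (log2 difference -3.44, SE 0.27, adjusted p = 1.05e-09 and log2 difference -2.66, SE 0.28, adjusted p = 2.71e-07). GATA6 was at 3.02 and 2.56 CPM, with 31.9 ± 0.684 and 9.5 ± 1.15. The list summed to between 351 and 388 CPM in E8, nearly all of it from SPARC and COL4A1, which encode matrix proteins. The defining factors GATA4, GATA6, SOX17 and FOXA2 stayed under 7 CPM in both E8 libraries, and HNF4A, at 5.55, 8.2, 10.1 and 7.14 CPM in naive cells, went to 0 and 0.233, at least 11.1-fold lower. Trophectoderm markers (4 higher and 1 lower of 8) and amnion markers (4 and 1 of 9), where 19% and 9.41% of all genes were called, summed to at most 46.2 and 62.0 CPM in E8. CDX2 fell to the floor, at least 3-fold, GATA3 reached 10.4 and 14.7 CPM and ISL1 fell from 7.11, 9.28, 7.91 and 8.74 to 1.32 and 2.1.

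Of 11 tested neural genes 6 were higher (4 without the first E8 library) and 2 lower, against 19% and 9.41% of all genes. NES, an intermediate filament of neural progenitors also made by primed cells, accounted for most of their summed level and rose from 52.7, 47.9, 39.8 and 49.6 to 339 and 268 CPM (log2 fold change 2.68, SE 0.12, adjusted p = 6.14e-17). PAX6 stayed at 2.08 and 1.63 CPM and its call was lost without the first E8 library. Fibroblast markers, listed because they can mark feeder cells, summed to between 9.01 and 10.2 CPM in the naive libraries. In E8 they summed to between 119.7 and 122.3, with 5 of 8 higher (19% of all genes). These cultures were kept without feeder cells, and the source of the fibroblast transcripts was not tested. Most of this was COL1A1, from 1.11, 1.3, 1.1 and 1.61 to 34 and 38.7 CPM, and COL1A2, from 0.444, 0.432, 1.54 and 0.357 to 66.6 and 62.4. COL3A1 was at 0 counts in both E8 libraries and LUM, DCN and FAP did not pass the filter.

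**Figure D5:**
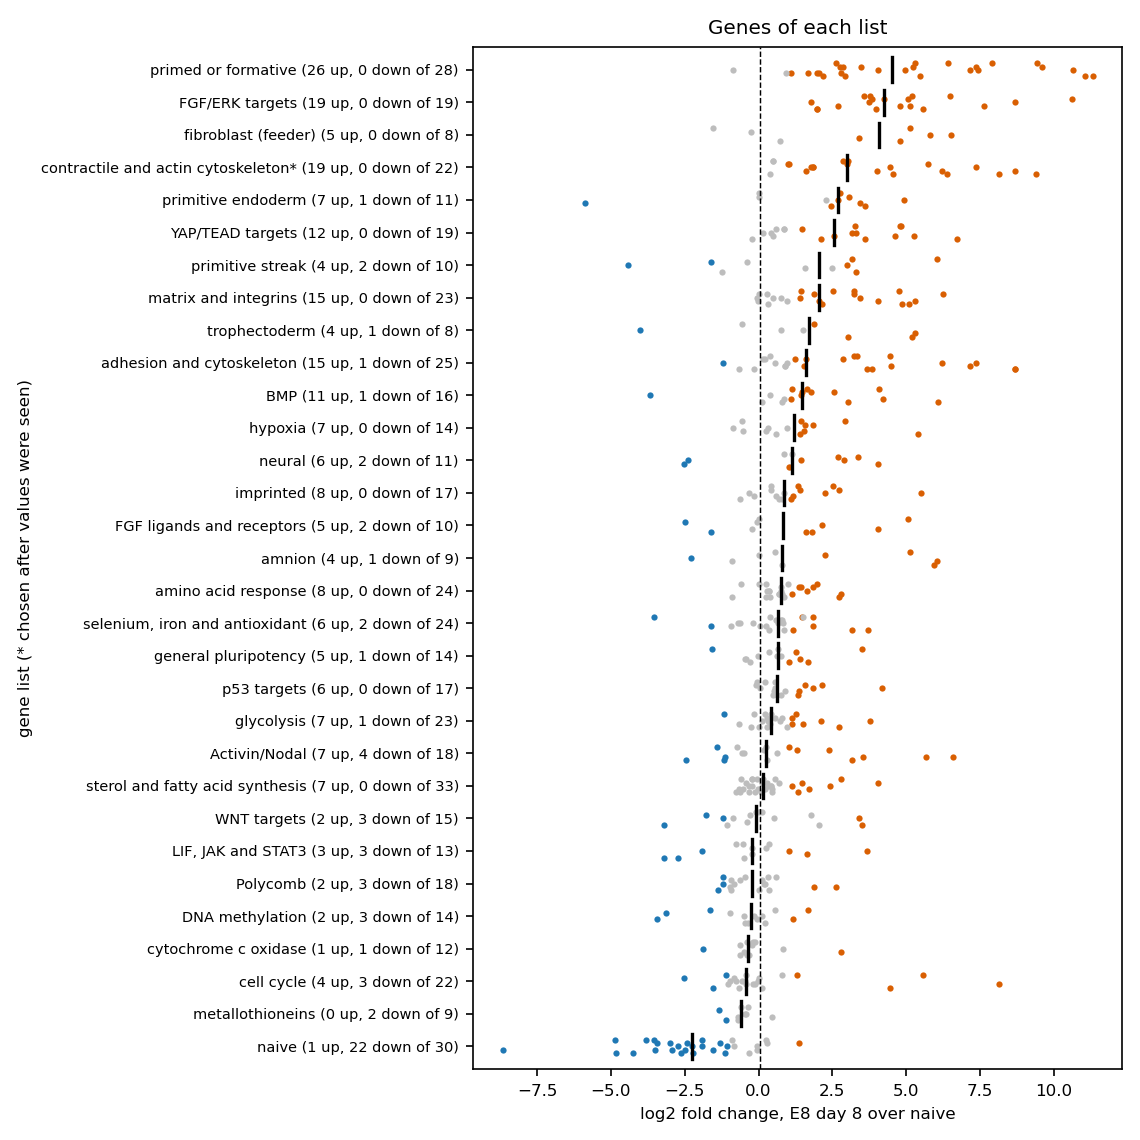
Log2 fold change of E8 day 8 over naive cells (horizontal axis) for every tested gene of 31 lists (vertical axis, with the number called higher and lower of those tested). Each point is a gene, orange where called higher, blue where called lower and grey otherwise, and the black tick is the median of the list. The dashed line is the median of all 16571 genes, 0.0367, and the lists of FGF/ERK targets and of primed genes lie furthest to the right, the naive list to the left.

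Among enzymes of DNA methylation, DNMT3B, a de novo methyltransferase, rose from 332, 304, 274 and 247 to 929 and 911 CPM (log2 fold change 1.67, SE 0.11, adjusted p = 1.34e-13), after a peak of 1897 and 1822 at day 2. TET2, an oxidase that starts demethylation (chr4:105145875-105279816), fell from 57.3, 45.5, 30.5 and 34.4 to 5.1 and 4.43 CPM (log2 fold change -3.12, SE 0.26, adjusted p = 5.23e-11) and was at 6.1 and 5.3 by day 2. UHRF1, which brings DNMT1 to replicated DNA, fell from 135, 127, 97.6 and 91.9 to 42.1 and 29.8 CPM (log2 fold change -1.64, SE 0.16, adjusted p = 1.34e-09). DNMT1, DNMT3A and TET1 were not called, and in all 2 of 14 genes were higher and 3 lower, against 19% and 9.41% of all genes. Polycomb genes gave 2 higher and 3 lower of 18, against the same shares. JARID2, a cofactor of Polycomb repressive complex 2, rose from 259, 269, 273 and 244 to 1578 and 1608 CPM (log2 fold change 2.61, SE 0.07, adjusted p = 2.05e-21), whereas the core subunit SUZ12 fell from 309.7, 305, 312 and 296 to 138 and 126 (log2 fold change -1.21, SE 0.09, adjusted p = 5.24e-12). EED, at -0.95 on the log2 scale, and EZH2, at -0.47, stayed under the fold threshold. Of 17 imprinted genes 8 were higher and 0 lower, also against these shares. NNAT, a small membrane protein of the brain, rose most, from 5.33, 7.34, 10.3 and 5.35 to 280.3 and 351 CPM (log2 fold change 5.48, SE 0.14, adjusted p = 5.45e-22). IGF2, near the floor in naive cells, rose from 0.444, 0.216, 1.1 and 0.178 to 3.59 and 2.8 CPM. PEG10 rose from 36.9, 28.5, 27.9 and 20.3 to 152 and 169, and H19 and MEG3 were not called.

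Adhesion and cytoskeletal genes rose in 15 of 25 cases and fell in 1, 19% of all genes being higher and 9.41% lower. The 1 was CDH1, which encodes E-cadherin, from 606, 682, 597 and 609.9 to 245 and 294 CPM (log2 fold change -1.21, SE 0.12, adjusted p = 3.23e-09), so that E-cadherin transcripts were still more numerous than those of CDH2 in both E8 libraries. VIM, the mesenchymal intermediate filament vimentin, was at least 112-fold higher and reached 82.5 and 67.1 CPM. The epithelial keratin KRT18 rose as well, from 19.6, 17.9, 22.6 and 19.8 to 461 and 413 (log2 fold change 4.45, SE 0.10, adjusted p = 2.09e-23). EPCAM, TJP1, CLDN6 and CLDN7, which belong to epithelial junctions, were not called. EPCAM, with means of 312 CPM in naive cells and 606 in E8, rose by less than the fold threshold, which it crossed under some alternatives. Matrix and integrin genes gave 15 higher and 0 lower of 23, against the same shares. Fibronectin (FN1) went from 179.5, 179, 169 and 163 to 369.7 and 552 CPM (log2 fold change 1.42, SE 0.18, adjusted p = 1.38e-07), below the 1099 ± 97.5 CPM of N2B27 (log2 difference -1.25, SE 0.21, adjusted p = 0.000129, a call lost without the first E8 library). The collagen IV chains COL4A1 and COL4A2 rose by 3.44 and 3.22 on the log2 scale, ITGB1 by 1.89, and the laminin genes LAMA1, LAMA5, LAMB1 and LAMC1 were not called.

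Metabolic genes are read against the 19% of all tested genes called higher and the 9.41% called lower. Of 23 glycolytic genes 7 were higher and 1 lower (6 and 2 without the first E8 library), with a median log2 fold change of 0.42. The glucose transporters SLC2A1 and SLC2A3 rose from 61.8, 46.4, 54.7 and 53.5 to 346 and 361 CPM (log2 fold change 2.71, SE 0.10, adjusted p = 1.28e-18) and from 229, 229, 260.1 and 232 to 986 and 1061 (log2 fold change 2.11, SE 0.08, adjusted p = 3.2e-18). Hexokinase 1 (HK1) rose from 18.4, 19, 23.7 and 20.2 to 287 and 268 (log2 fold change 3.77, SE 0.13, adjusted p = 1.68e-19). PGK1 and PKM were not called. GAPDH, with means of 651 CPM in naive cells and 1132 in E8, rose by less than the fold threshold. The call of LDHA, lactate dehydrogenase A, at 266, 334, 459 and 429.9 and 914 and 705 CPM, was lost without the first E8 library. Hypoxia-inducible genes gave 7 higher and 0 lower of 14, among them ADM, which encodes adrenomedullin, from 2.89, 1.51, 1.98 and 2.14 to 95.7 and 87.4 CPM (log2 fold change 5.41, SE 0.20, adjusted p = 1.11e-18). Of these 14, 5 were lower in E8 than in mTeSR, as were 6 of the glycolytic genes. Sterol and fatty acid genes gave 7 higher and 0 lower of 33 (5 and 1 without the first E8 library), a share near that of all genes, with HMGCS1, FASN and SCD not called. Genes of the amino acid response gave 8 higher and 0 lower of 24, led by VLDLR and the arginine transporter SLC7A3, from 48.2, 50.1, 58.7 and 62.4 to 331 and 396 CPM (log2 fold change 2.72, SE 0.12, adjusted p = 1.81e-17).

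Of 12 subunits of cytochrome c oxidase 1 was higher, COX7A1 at 4.15 and 3.26 CPM, and 1 lower, against 19% and 9.41% of all genes. Without the first E8 library 1 was higher and 2 lower, and without the second 2 and 0. Metallothioneins fell in 2 of 9 cases and 4 were higher in E8 than in mTeSR, including MT1G, at 1394, 1371, 1159.7 and 1093 CPM in naive cells, 838 and 711 in E8 and 386 ± 0.861 in mTeSR (log2 difference 1.01, SE 0.12, adjusted p = 1.62e-06), a call lost without the first E8 library. Among 24 genes of selenium, iron and antioxidant defence 6 were higher and 2 lower, against the same shares. The lower ones were GPX2, a glutathione peroxidase, from 46, 38, 38.5 and 37.8 to 3.4 and 3.49 CPM (log2 fold change -3.53, SE 0.26, adjusted p = 4.09e-12), and the thioredoxin reductase TXNRD1, from 312, 286, 288 and 265 to 88.9 and 102 (log2 fold change -1.60, SE 0.14, adjusted p = 1e-10).

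Of 22 cell cycle genes 4 were higher and 3 lower, shares near the 19% and 9.41% of all genes, and CCNA2, CDK1 and PCNA were not called. MKI67, with means of 237 CPM in naive cells and 148 in E8, fell by less than the fold threshold. Among those called, CCND1 rose from 3.78, 3.45, 5.93 and 6.42 to 228 and 242 CPM (log2 fold change 5.56, SE 0.17, adjusted p = 1.95e-20) and CCND2 (chr12:4269771-4305353) from 0.889, 4.32, 3.52 and 1.61 to 774 and 683 (log2 fold change 8.15, SE 0.20, adjusted p = 2.23e-22). Their partner kinase CDK6 rose from 5.78, 5.4, 4.17 and 4.64 to 109 and 110.2 (log2 fold change 4.45, SE 0.15, adjusted p = 4.68e-20). CCND3 fell from 90.9, 92.6, 99.8 and 86.7 to 17 and 14.7 CPM (log2 fold change -2.54, SE 0.13, adjusted p = 1.89e-15) and CCNE1 from 91.8, 83.8, 94.7 and 79.4 to 28.3 and 31.2 (log2 fold change -1.55, SE 0.14, adjusted p = 1.76e-10). The groups were far apart for each of these 5 genes, and CCND2 was already at 271 and 243 CPM at day 2. Of 17 p53 targets 6 were higher and 0 lower (19% and 9.41% of all genes), with CDKN1A up from 11.3, 9.28, 18.2 and 17.5 to 75.3 and 50.8 CPM (log2 fold change 2.16, SE 0.19, adjusted p = 2.29e-10) and MDM2 and BBC3 not called.

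Beyond these lists, the 12 largest fitted falls among genes with at least 20 CPM in naive cells included those of SPIC, ITGAM, DMBX1 and RGCC. Several of these genes were at the floor in E8, so their order depends on the prior count and is not given. ITGAM, an integrin chain best known from myeloid cells, went from 49.1, 47.9, 44.2 and 47.8 CPM to 0.189 and 0, at least 67.6-fold lower, and DMBX1, a homeobox gene, from 25.5, 27.2, 24.4 and 26 to 0.189 and 0, at least 36.9-fold lower. RGCC was at least 75.3-fold lower, its naive values of 70.9, 61.3, 34.7 and 43.7 CPM being higher on serum than on Geltrex. HLA-F, a nonclassical class I gene with near relatives that can share its reads, fell from 45.5, 49.9, 31.9 and 48.3 to 1.51 and 0.466 CPM. The other 7 of the 12 largest falls were those of SLC52A3, LIPH, MAGEB2, OLAH, SMPDL3A, FAM151A and AL121761.1.

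The 12 largest fitted rises were those of EDNRB, SFRP2, PTPRZ1, SPRY4, THY1, ACTA1, AC091820.2, GCNT4, NTS, NRK, AL591742.2 and NPPB. Most of them were at the floor in naive cells, so their order, too, depends on the prior count. GCNT4, a glycosyltransferase, was at the floor in naive cells and at 60.2 and 58.9 CPM in E8, at least 89.4-fold higher, and above N2B27 and mTeSR (log2 difference 1.99, SE 0.24, adjusted p = 1.19e-06 and log2 difference 2.90, SE 0.27, adjusted p = 3.45e-08). NPPB, which encodes natriuretic peptide B, was at 41.9 and 36.3 CPM, at least 58.7-fold higher, against 13.3 ± 1.89 in mTeSR. NTS, or neurotensin, was at 61.7 and 46.8 CPM in E8, at least 81.4-fold higher, and at 192 ± 13.1 in N2B27 (log2 difference -1.82, SE 0.16, adjusted p = 4.27e-09). The unnamed transcript AL591742.2 went from 0.444, 0.432, 0.879 and 0.535 to 325 and 374 CPM (log2 fold change 9.19, SE 0.26, adjusted p = 2.01e-21). By gain in CPM, ACTG1 was followed by JARID2, the secreted matrix protein SPP1, from 5.33, 3.02, 7.69 and 5.53 to 1305 and 1152 CPM (log2 fold change 7.82, SE 0.18, adjusted p = 3.81e-23), and then CALD1, PODXL, L1TD1, the telomere-binding protein TERF1 and SLC2A3. By loss, NLRP7 was followed by the mitochondrial ribosomal RNA MT-RNR1, REST, which represses neuronal genes outside neurons, at 1041, 1145, 1234 and 1234 and then 397 and 403 CPM (log2 fold change -1.54, SE 0.11, adjusted p = 2.19e-12), NLRP2, RBM8A, KHDC1L, ACSL3 and PRR13. MT-RNR1 and PRR13 were near the fold threshold, MT-RNR1 losing its call in 3 of 17 alternatives and PRR13 in 6, among them that without the second E8 library.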

How the data were processed

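Gene counts of 38 QuantSeq 3′ libraries were analysed. The deposited table holds raw counts per gene symbol that the authors made with nf-core rnaseq, and per the labels FastQC 0.11.9, STAR 2.7.10a, Salmon 1.9.0, DESeq2 and hg38 were used. The annotation release, the strand setting and the handling of reads shared between genes are not given in the sources used here. Of 57133 genes, 14445 had 0 counts in all libraries.

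The 30 libraries of the first experiment were fitted in R 4.3.3 with edgeR 4.0.16 (filterByExpr, TMM, quasi-likelihood F-tests, 14 levels of medium and day, 16 residual degrees of freedom), leaving 16571 genes with 99.6% of the counts and a biological coefficient of variation of 11.6%. The 4 naive libraries formed 1 level. The coatings were compared in a fit in which each coating was a level of its own. SEs were derived from the F statistic. Calls needed an adjusted p-value under 0.05 and an absolute log2 fold change over 1. Values after ± are SDs of 2 libraries. A group with 3 counts or fewer in every library was taken as at the floor (at most 0.666 CPM in naive and 0.699 in E8 libraries), folds against it are bounds, and floors cover counting error only. The naive libraries held 4390955 to 5577221 counts.

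Genes were named by a rule: the leading members of each list with up to 3 of its largest called rises and falls, up to 12 of the largest called rises and falls over all genes whose higher group averaged 20 CPM or more without overlapping the other, and up to 8 of the largest gains and losses in CPM among called genes. A gene outside this rule is named only where a result turned on it, chosen after its values were seen. The comparison, the lists and the rule were chosen with earlier results of these data known and are not independent evidence, and the 22 contractile genes were put together after their values were seen. Alternatives were RLE size factors, plain totals, the filter of the study (over 10 counts in 2 or more libraries), no filter, DESeq2 1.42.0, the compared libraries alone, the naive libraries of both experiments, either coating alone, the replicate block and leaving out each library. The script was tested on simulated data. Positions were taken by symbol from GENCODE release 44 (GRCh38) and promoters from RefSeq. Some results are not reported here.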

Additional observations from a re-analysis of the deposited data

Results flagged for a closer look

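Among 174 genes named or drawn here with naive counts above the floor, 12 had 1 naive library far from the other 3 by Dixon's criterion for 4 samples (a gap above 0.829 of the range), where chance flags about 1 in 20, or 8.70 of 174. In naive serum replicate 1, POU5F1 was at 563 CPM against 356 to 385 in the other naive libraries, and TDGF1 at 189.5 against 174 to 176. In the same library GPX2 was at 46.0 against 37.8 to 38.5 and WWTR1, a relative of YAP1, at 32.2 against 24.6 to 25.3. In naive serum replicate 2, CDH1 was at 682 CPM against 597 to 610 and CNN1 at 3.67 against 6.06 to 6.44. In naive Geltrex replicate 1, SLC2A3 was at 260.2 CPM against 229 to 232, LAMA1 at 37.4 against 29.8 to 30.9 and COL1A2 at 1.54 against 0.357 to 0.444. In naive Geltrex replicate 2, DNMT3L was at 333 CPM against 357 to 361, DPPA2 at 36.6 against 23.3 to 25.5 and ZIC2 at 0.714 against 0.863 to 0.889. POU5F1, WWTR1 and LAMA1 were not called between E8 and naive cells, and in the other genes the far library did not overlap the E8 libraries.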

How the results depend on the processing

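The count of 4709 genes called between E8 day 8 and naive cells stayed within 1.5 times under every alternative: 4704 with RLE size factors, 4701 with plain totals, 4679 with the filter of more than 10 counts in 2 libraries, 5453 with no filter, 4433 with DESeq2, 4550 with the compared libraries alone, 4552 with the 6 naive libraries of both experiments, 4420 against the Geltrex and 4783 against the serum libraries alone, and 4226 to 4741 when single libraries were left out. With the replicate block it was 4693, and with the crossed pairing of the numbers, chosen after seeing the data, 4686. The numbers were not taken as pairs: deviations of same-numbered libraries from their group means correlated at 0.0538 (serum and Geltrex), -0.043 (serum and E8) and -0.1257 (Geltrex and E8). The block gave 1092 calls against N2B27, 775 against mTeSR and 0 between the coatings.

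The other comparisons leaned on the E8 libraries. Leaving out 1 of them, an alternative chosen after seeing the data, moved the calls against E8 day 6 from 19 to 366 (12 to 252 higher, 7 to 114 lower), those against N2B27 from 664 to 1262 (254 to 618 higher, 410 to 644 lower) and those against mTeSR from 361 to 1052 (145 to 591 higher, 216 to 461 lower), and the cause was not tested. Between the coatings DESeq2 called 4 genes, 2 higher and 2 lower on Geltrex, where edgeR called 0, and the cause was not tested. None of the 203 genes named or drawn changed sign between E8 and naive cells where the main fit or the alternative called it. Genes that were not called could change sign, as POU5F1 did (log2 fold changes from -0.61 to 0.42). Under these alternatives 13 genes lost their call in at least 1 (TPM4 in 10 of 17, PAX6 in 7, FGF8 and PRR13 in 6) and 8 gained one. The E8 group rests on 2 libraries of 4240390 and 5350385 counts.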
